A study of Mus musculus with 31 samples.

Results

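The open chromatin around 10 microRNA genes known for their roles in fibroblasts and related mesenchymal cells was described in NIH-3T3, an established line of mouse embryonic fibroblasts. The genes are Mir21a, Mir29a, Mir29b-1, Mir31, Mir143, Mir145a, Mir155, Mir214, Mir221 and Mir222, which were listed by name and make up 10 of the 2202 microRNA genes annotated on chromosomes 1 to 19, X and Y. For each gene, every ATAC-seq peak within 25 kb was taken, together with the peaks within 1 kb of any transcription start site (TSS) of its host gene, the longer transcript unit that contains the microRNA on the same strand. Within 25 kb of the 10 genes lay 47 of the 63456 peaks of the library. Members that lie within 10 kb of each other share peaks (Mir29a with Mir29b-1, Mir143 with Mir145a, Mir221 with Mir222), so the 10 genes form 7 loci and are not independent of one another.

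The study asked how the binding of transcription factors (TFs) to mitotic chromosomes relates to their behaviour in interphase, and its ATAC-seq series holds 31 samples. The library used here is the single one of parental cells, which carry no transgene and for which the labels list no treatment. The samples that overexpress 1 of 13 TFs, and the 4 control samples with the transactivator rtTA3G alone, were not analysed here. Since 1 library was used, values have no replicate error, and nothing was tested. The values describe this library, peaks are not replicates of one another, and the intervals below are exact Poisson 95% intervals of the fragments at a summit, which cover counting error alone.

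Each peak carries a fold enrichment, the pileup of fragments at its summit over the local expected pileup with 1 added to both, and a −log10 q, the peak caller's adjusted significance. The median peak of the library had a fold of 6.04 and 29 fragments at its summit. The labelled cell type was compared with promoter peaks of marker genes. Of 12 fibroblast markers, 11 had a peak within 1 kb of a TSS, with folds from 3.41 at Thy1 (12 fragments) and 3.65 at Prrx1 through 5.83 at Col1a1 to 10.5 at Fn1 (fibronectin), and Postn had none. Of the markers of other cell types, 2 of 6 epithelial genes (Krt8 at 3.25 and Grhl2 at 5.4), 1 of 5 blood genes (Spi1 at 3.22), 1 of 3 muscle genes (Ckm at 4.32) and none of the 4 neuronal, 3 liver and 3 embryonic stem cell genes had one. The low folds at Thy1 and Prrx1 were in the range of those at markers of other cell types. The share of all coding genes with a promoter peak was not counted.

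MicroRNAs are cut from hairpins in long primary transcripts, first in the nucleus by Drosha with Dgcr8 and then in the cytoplasm by Dicer1, and guide Argonaute proteins to messenger RNAs that pair with the seed, the bases near the 5′ end of the mature strand. The promoter of a microRNA is that of its primary transcript and can lie far from the hairpin, and accessible elements around it can act over a distance. In mesenchymal cells miR-21 is an abundant microRNA linked to fibrosis, miR-29 represses collagens and other matrix genes, miR-143 and miR-145 belong to contractile smooth muscle, miR-214 is made from a transcript antisense to a dynamin gene, miR-221 and miR-222 repress a cell cycle inhibitor, and miR-155 is best known from immune cells. A peak of accessible chromatin does not measure how much of any of these RNAs a cell makes.

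The mature strands show which members can share targets, and are printed 5′ to 3′ with the seed (bases 2 to 8) in capitals. They come from the RefSeq annotation of GRCm38.p6, the build of the peaks. The sequences at hand covered 8 of the 10 members, without Mir143 and Mir145a.
mmu-miR-21a-5p: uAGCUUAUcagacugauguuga
mmu-miR-29a-3p: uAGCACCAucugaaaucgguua
mmu-miR-29b-3p: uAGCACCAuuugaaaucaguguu
mmu-miR-31-5p: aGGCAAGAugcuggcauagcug
mmu-miR-155-5p: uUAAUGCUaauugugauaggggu
mmu-miR-214-3p: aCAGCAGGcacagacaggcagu
mmu-miR-221-3p: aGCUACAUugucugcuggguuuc
mmu-miR-222-3p: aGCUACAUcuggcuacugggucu
Of the pairs that share a locus, the 2 with printed strands also share a seed. Mir29a and Mir29b-1 have AGCACCA, as does miR-29c-3p, and their mature strands were identical at 18 of the 22 positions compared without gaps. Mir221 and Mir222 have GCUACAU, which miR-1928 carries too, and were identical at 11 of 23 positions, again without gaps, so that a stretch shifted by a base counts as different. The seed of miR-21a-5p was found in 1 other mature microRNA (miR-21c), that of miR-214-3p in 1 other (miR-761), and those of miR-31-5p and miR-155-5p in no other mature sequence of the table.

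The DNA under 5 summits is shown next because the consensus of AP-1, the FOS and JUN dimer that fibroblasts use in the response to serum and growth factors, was found there. For each locus printed it is the peak with the highest fold among those with TGACTCA within 50 bp of the summit on either side. The Mir143 pair, which also had peaks with TGACTCA, is not printed. The windows are from the plus strand of GRCm38 (mm10), with the motif in capitals. It reads TGAGTCA where the match is on the minus strand.
Mir21a, chr11:86593191-86593291: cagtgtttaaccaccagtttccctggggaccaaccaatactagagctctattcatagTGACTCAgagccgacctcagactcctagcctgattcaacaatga
Mir31, chr4:88928593-88928693: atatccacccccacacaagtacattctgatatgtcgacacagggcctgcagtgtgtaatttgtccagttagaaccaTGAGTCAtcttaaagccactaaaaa
Mir155, chr16:84698858-84698958: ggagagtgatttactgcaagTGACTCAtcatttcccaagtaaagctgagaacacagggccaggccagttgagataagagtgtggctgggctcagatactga
Mir214, chr1:162243546-162243646: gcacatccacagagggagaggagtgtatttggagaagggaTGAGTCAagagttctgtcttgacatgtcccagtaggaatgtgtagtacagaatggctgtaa
Mir221 and Mir222, chrX:19168330-19168430: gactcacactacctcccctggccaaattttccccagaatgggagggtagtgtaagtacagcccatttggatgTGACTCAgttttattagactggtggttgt
The centre of the motif lay 10 bp from the summit at Mir21a, 7 bp at Mir214, 25 bp at Mir221 and Mir222, 27 bp at Mir155 and 29 bp at Mir31. The window at Mir214 also holds GGAATG, the core of the TEAD motif. Another 2 windows are shown for the CArG box, the site of serum response factor (SRF), again in capitals.
Mir21a, chr11:86587073-86587173: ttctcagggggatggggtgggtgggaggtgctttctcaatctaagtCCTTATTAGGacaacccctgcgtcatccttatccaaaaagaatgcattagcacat
Mir214, chr1:162217545-162217645: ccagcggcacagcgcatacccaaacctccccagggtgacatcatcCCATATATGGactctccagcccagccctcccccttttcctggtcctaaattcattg
The first is the peak at 2 start sites of Vmp1 just upstream of Mir21a, and the second is the promoter peak of Dnm3os, the host of Mir214. In both windows the CArG box spans the summit base, with its centre 0.5 bp from it.

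All 10 members had at least 1 peak within 25 kb, as did 63.5% of all annotated microRNA genes. They differed from the typical microRNA gene in how many peaks they had. Mir21a had 10 peaks, Mir29a and Mir29b-1 had the same 8, Mir31 had 7, Mir143 and Mir145a had the same 7, Mir214 had 7, Mir155 had 5 and Mir221 and Mir222 had the same 3. The median over the members was 7 peaks, against a median of 1 (quartiles 0 and 3) and a maximum of 15 over all microRNA genes, and all 10 members were above that median. As many peaks as at Mir21a were found at 0.545% of all microRNA genes. The share was 2.36% for the count of the Mir29 pair, 4.95% for a count of 7, 13.5% for that of Mir155 and 34.0% for that of the Mir221 pair. Mir221 and Mir222 thus stood lowest among the members, at the upper quartile of all microRNA genes. In these shares every annotated gene counts, so a cluster such as that of the Mir467a genes, none with a peak, enters many times. The members were chosen with earlier results of these data known.

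**Figure D1:**
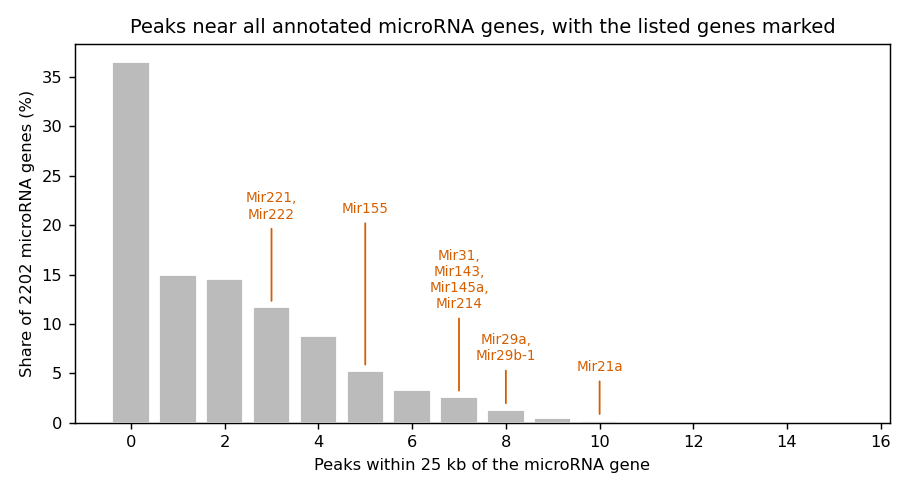
Number of ATAC-seq peaks within 25 kb (horizontal axis) against the share of the 2202 annotated microRNA genes with that number (vertical axis, percent), with the 10 listed genes marked in orange. The listed genes lie between 3 and 10 peaks, and the median over all microRNA genes is 1.

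Some microRNA genes lie close to start sites of protein-coding genes, and the counts are given here with that setting. Noncoding starts were not set aside, and 4 of the 7 peaks of the Mir143 pair were within 1 kb of one. Whether nearness to start sites bears on the number of peaks was not tested. A coding TSS within 25 kb was annotated for Mir21a (1 gene) and Mir155 (1 gene) and for none of the other 8 members. Of the 955 microRNA genes without a coding TSS within 25 kb, 368 (38.5%) had a peak, 13.6% had 3 or more and 2.09% had 7 or more, with a median of 0. The 8 members in this setting had 3 to 8 peaks. Mir221 and Mir222 are on chromosome X, where 43 of 142 microRNA genes (30.3%) had a peak and 9.86% had 3 or more.

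Peaks lay on both sides of the genes at 6 of the 7 loci. Mir21a had 5 upstream and 5 downstream, the Mir29 pair 5 and 3, Mir31 3 and 4, the Mir143 pair 3 and 4, Mir155 2 and 3, and Mir214 4 and 3, with upstream read on the strand of the microRNA. The 3 peaks of the Mir221 pair were all upstream. No peak overlapped a hairpin. The gap from the gene to the nearest peak was 131 bp at Mir31 and 395 bp at Mir29a, between 758 and 5264 bp at Mir29b-1, Mir214, Mir155, Mir21a, Mir145a and Mir143, and 10480 bp at Mir222 and 11063 bp at Mir221. The sides and the overlap with hairpins were not counted for the other microRNA genes. Of the 47 peaks, 19 had their summit in introns, 6 in exons and 22 between genes, which was not counted over all peaks. Within 1 kb of a TSS were 11 (23.4%), against 25.5% of all peaks.

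**Figure D2:**
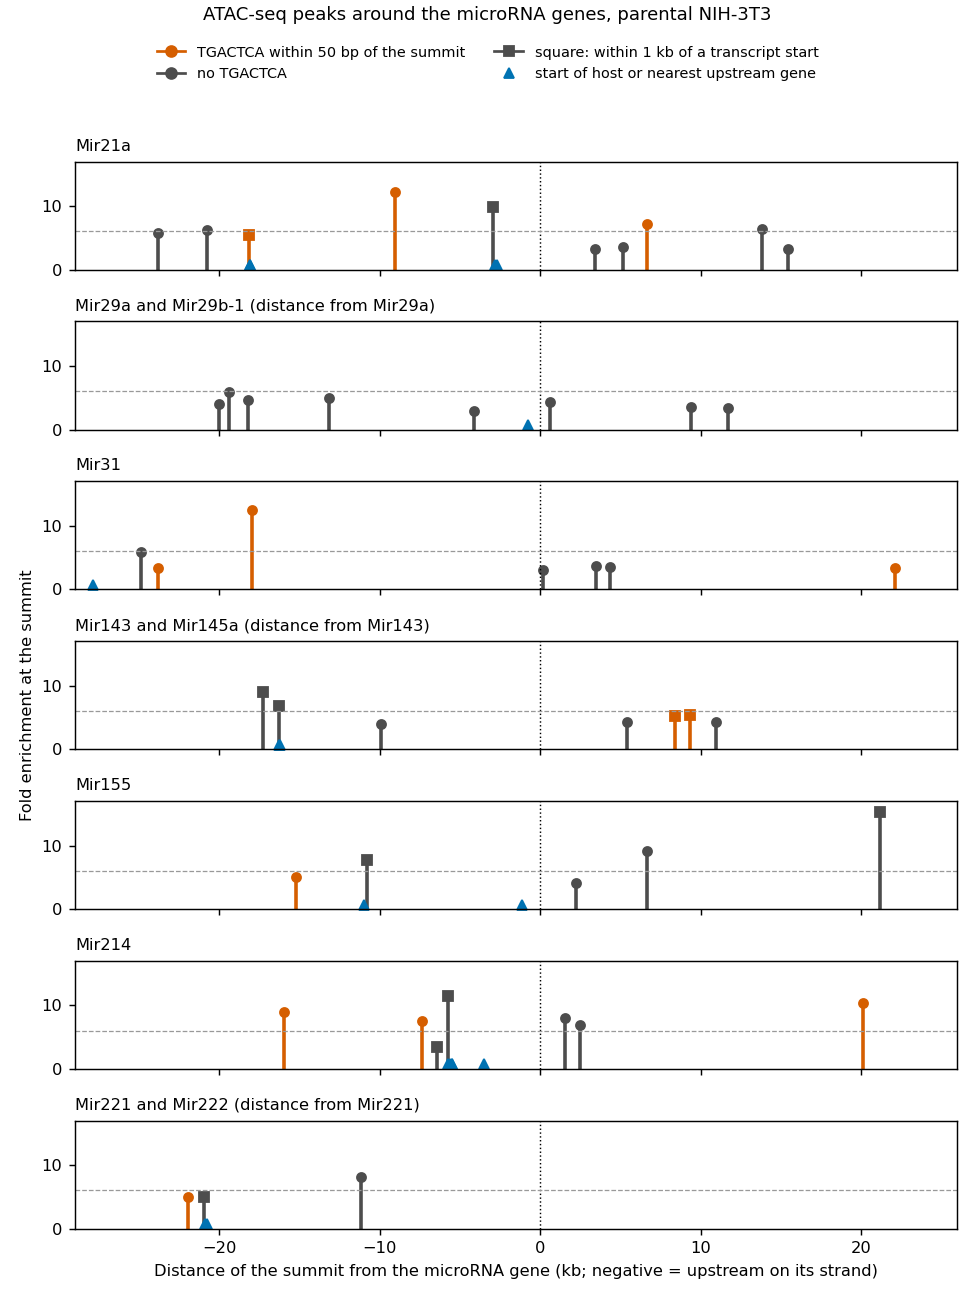
Peaks within 25 kb of the listed genes in 1 panel per locus, with the distance of the summit from the gene in kb (horizontal axis, negative is upstream on its strand) and the fold enrichment (vertical axis). Orange marks TGACTCA within 50 bp of the summit, squares mark peaks within 1 kb of a TSS, blue triangles mark starts of the host or nearest upstream gene, and the dashed line is the median fold of all peaks, 6.04. The Mir29 locus has 8 peaks, none above that line and none orange.

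Of the 10 members, 4 lie inside an annotated host gene, and in each case the hairpin overlaps an exon of at least 1 host transcript. All 4 hosts (Vmp1, AL805899.1, Mir155hg and Dnm3os) had a peak within 1 kb of at least 1 of their start sites, as did 70.8% of the 1179 microRNA genes that have a host. The promoter peaks of the 4 hosts differed in height, in width and in base composition.

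The Mir21a hairpin is at chr11:86584067-86584158 on the minus strand, at the 3′ end of Vmp1, which encodes a membrane protein of autophagy. Vmp1 has 8 annotated starts. The pair at 99.7 kb upstream of Mir21a, where the full-length gene begins, lay under a peak at chr11:86683539-86684157 with a fold of 10.6, a −log10 q of 30.9 and 43 fragments. CpG dinucleotides were at 0.803 to 0.812 of the number expected from base composition within 500 bp of these starts on either side. Nearer to the hairpin, the starts at 2.72 and 2.84 kb upstream lay under a peak at chr11:86586545-86587480 with a fold of 9.85, a −log10 q of 43.9 and 68 fragments (52.8 to 86.2), which holds the CArG box printed above. Here the CpG ratio was 0.301 and 0.328. A further pair of starts 18.1 kb upstream had a narrow peak of 125 bp with a fold of 5.48, 20 fragments and TGACTCA near the summit. The starts at 79.4 and 87.0 kb had no peak within 1 kb. Accessible chromatin was thus present both at the CpG-rich promoter of the coding gene and at the CpG-poor starts next to the microRNA.

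The highest peak within 25 kb of Mir21a was at none of these starts. It was in an intron of Vmp1 at chr11:86593047-86593551, 9.08 kb upstream of the hairpin, with a fold of 12.3, a −log10 q of 41.1 and 53 fragments (39.7 to 69.3), and holds the AP-1 consensus. Downstream of the gene, the highest of the 5 peaks was 6.67 kb away with a fold of 7.16 and 62 fragments, again with TGACTCA. Its interval of 47.5 to 79.5 fragments overlapped that of the intronic peak, so they cannot be ordered in fragments. Its fold was lower, with a local expected pileup of 7.8 there and 3.38 in the intron. The nearest peak, at chr11:86586545-86587480, began 2387 bp from the hairpin. The remaining 6 peaks had folds of 3.25 to 6.45 and 13 to 31 fragments.

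Mir29a (chr6:31062660-31062747) and Mir29b-1 (chr6:31063023-31063093) are on the minus strand within 1 kb of each other and have no host that contains them. The short lincRNA Gm27019, whose end overlaps the Mir29b-1 hairpin, starts 0.748 kb upstream of Mir29a and had no peak within 1 kb of its TSS, the nearest being 1230 bp away. This locus had 8 peaks but low ones, with folds of 2.91 to 5.97 (median 4.18), and none reached the median of all peaks. The highest was at chr6:31082008-31082475, 19.4 kb upstream of Mir29a, with a fold of 5.97, a −log10 q of 27.2 and 63 fragments (48.4 to 80.6). Next came a peak 13.1 kb upstream with a fold of 4.94 and 37 fragments. The nearest, 0.598 kb downstream of Mir29a, had a fold of 4.3 and 22 fragments (13.8 to 33.3). In fragments the locus was not low. Its 3 peaks farthest upstream, from 18.2 kb outward, had 42 to 63 fragments over an expected pileup of 9.59 to 10.1, and all 3 were above the library's median of 29 fragments. The outermost of these, 20022 bp upstream, is in an exon of Lncpint, a long noncoding RNA. At a promoter of Lncpint 26.2 kb upstream of Mir29a, and so beyond the 25 kb, lay a peak with a fold of 10.8 and 90 fragments.

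Mir31 is at chr4:88910557-88910662 on the minus strand, in an exon of the lincRNA AL805899.1. The TSS of this host is 27.9 kb upstream, under a peak at chr4:88937869-88938933 that was 1065 bp wide, with a fold of 4.24, a −log10 q of 19.8 and 66 fragments. This was the lowest fold among the 4 host promoters, and its surroundings had the highest GC content (66.4%) and a CpG ratio of 1.0. In fragments it was not the lowest, since Mir155hg had 38 and the Vmp1 starts at 99.7 kb had 43. The Vmp1 starts nearest to Mir21a had 68 and Dnm3os had 107. The peaks within 25 kb were uneven. An intronic peak at chr4:88928242-88929067, 18 kb upstream, had a fold of 12.5, a −log10 q of 85.1 and 117 fragments (96.8 to 140.2), the most of the 47 peaks, and holds the AP-1 consensus printed above. Its fold was higher than that of 90.6% of all peaks. The next, 24.9 kb upstream, had a fold of 5.86 and 63 fragments, and the other 5 had folds of 3.08 to 3.66. The peak nearest to the hairpin, 0.156 kb downstream in an exon of the host, had the lowest fold of the locus, 3.08, and 14 fragments (7.65 to 23.5).

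Mir214 is at chr1:162223368-162223477 on the plus strand, in an exon of Dnm3os, which runs antisense within Dnm3, a gene for a dynamin. Dnm3os has 4 start positions 5.49 to 5.75 kb upstream of Mir214, and all 4 were at a peak at chr1:162217299-162217955 with a fold of 11.4, a −log10 q of 73.8 and 107 fragments (87.7 to 129.3). This was the highest host promoter of the members, although its surroundings were CpG-poor (ratios of 0.298 to 0.355), and it holds the CArG box on its summit. A start 3.5 kb upstream of Mir214 had no peak within 1 kb. The next highest peak within 25 kb was an intronic peak of Dnm3 at chr1:162243101-162243918, 20.1 kb downstream, with a fold of 10.4 and 59 fragments (44.9 to 76.1), which carries TGACTCA and GGAATG. The nearest peak, 1.52 kb downstream in an exon of Dnm3os, had a fold of 7.99 and 41 fragments. Of the 7 peaks at this locus, 6 reached a fold of 5, and the median of 7.99 was the highest of the 7 loci. The peak below a fold of 5 was a second one within 1 kb of the 4 Dnm3os starts. It lay at chr1:162216725-162216996, with a fold of 3.52 and 32 fragments.

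Mir155 is at chr16:84714140-84714204 on the plus strand, in an exon of Mir155hg, its primary transcript. The TSS of Mir155hg 11.0 kb upstream was under a peak at chr16:84702733-84703601 with a fold of 7.79, a −log10 q of 21.7 and 38 fragments (26.9 to 52.2), in CpG-rich sequence (ratio 0.868). A second start, 1.12 kb upstream, had no peak within 1 kb, the nearest being 3331 bp away. The highest fold among the 47 peaks, 15.3 with a −log10 q of 85.8 and 104 fragments (85.0 to 126.0), was also at this locus, but it lies 21.2 kb downstream at the promoter of Mrpl39, a gene for a mitochondrial ribosomal protein. Without it the highest was 9.12 with 45 fragments, 6.65 kb downstream within Mrpl39. The nearest peak was 2.2 kb downstream with a fold of 4.11 and 19 fragments, and the peak with the AP-1 consensus, 15.2 kb upstream, had a fold of 5.06 and 24 fragments (15.4 to 35.7).

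Mir221 (chrX:19146294-19146388) and Mir222 (chrX:19146893-19146971) are on the minus strand and have no annotated host. The nearest start upstream is that of the noncoding transcript Gm14636, 20.8 to 20.9 kb from Mir221, and it had a peak at chrX:19167058-19167387 with a fold of 4.99, a −log10 q of 7.37 and 18 fragments (10.7 to 28.4). The highest peak of the locus was at chrX:19157451-19158157 in an exon of Gm14636, 11.2 kb upstream of Mir221, with a fold of 8.14 and 30 fragments (20.2 to 42.8), and was also the nearest. The third, 22 kb upstream, had the same fold and fragments as the peak at the start of Gm14636, and carries TGACTCA. All 3 stood over an expected pileup of 2.81, the background value of the whole library, so that a fold of 8.14 here rested on fewer fragments than the fold of 5.97 at the Mir29 locus. No further peak was found between 25 and 50 kb.

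Mir143 (chr18:61649196-61649258) and Mir145a (chr18:61647825-61647894) are on the minus strand, also without a host in this annotation. The nearest start upstream is that of the lincRNA Carmn, 16.2 to 16.3 kb from Mir143. Within 1 kb of it were the 2 highest peaks of the locus, at chr18:61666220-61666694 with a fold of 9.07, a −log10 q of 38.5 and 63 fragments (48.4 to 80.6), and at chr18:61665119-61666053 with a fold of 6.86 and 48 fragments (35.4 to 63.6). The sequence around the start was CpG-poor, with a ratio of 0.25 to 0.273. Downstream of Mir145a another 2 peaks were within 1 kb of starts of the noncoding gene Bvht, with folds of 5.22 and 5.36 and 48 and 49 fragments, and these were the 2 with TGACTCA. The nearest peak, 4.01 kb downstream of Mir145a, had a fold of 4.21 and 35 fragments. With 4 of its 7 peaks within 1 kb of a noncoding TSS, this locus had the largest number of such peaks among the 7.

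Taken as a set, the 47 peaks were not higher than the rest of the library. Their median fold was 5.22 (range 2.91 to 15.3) against 6.04, 18 of them were at or above the median of all peaks, and 2 were in the upper 10% by fold. In fragments the order was reversed, with a median of 36 (range 12 to 117) against 29, and they were slightly wider, with a median of 372 against 327 bp. Away from any TSS, the 36 remaining peaks had a median fold of 4.81 against 5.54, and a median of 30.5 fragments against 25. The 3 peaks with the most fragments, at Mir31 (117), at the Dnm3os promoter (107) and at the Mrpl39 promoter (104), had intervals that overlapped one another and cannot be ordered at this depth. Repeats made up 0 to 31.4% of the bases of a peak, and no peak was masked over more than 50% of its length.

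**Figure D3:**
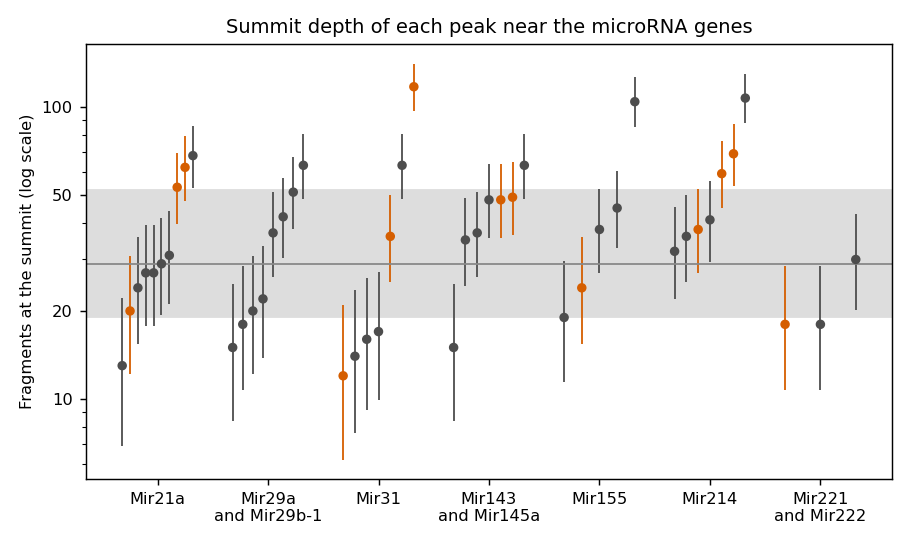
Fragments at the summit of each of the 47 peaks (vertical axis, log scale), by locus and sorted within it, with exact Poisson 95% intervals as bars, which cover counting error alone. Orange marks TGACTCA at the summit, the grey line and band are the median (29) and quartiles (19 and 52) of all peaks, and the points run from 12 to 117 fragments, both at the Mir31 locus.

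TGACTCA was found in the summit window of 13 of the 47 peaks (27.7%, exact 95% binomial interval 15.6 to 42.6%), against 21.7% of all peaks. Among peaks more than 1 kb from any TSS, the share was 10 of 36 (27.8%) against 26.3%. The share at the members was thus close to that of the library. The interval treats the peaks as independent draws, which peaks of the same locus are not, so it describes the share and is no test. The consensus was spread over the loci unevenly. It occurred at 6 of the 7 loci, with 3 peaks each at Mir21a, Mir31 and Mir214, 2 at the Mir143 pair, and 1 each at Mir155 and the Mir221 pair, and at none of the 8 peaks of the Mir29 locus. The looser form TGANTCA, which includes TGACTCA, was in 16 peaks (34.0%) against 26.2% of all peaks, and 1 of these was at the Mir29 locus. Peaks with TGACTCA had a median fold of 5.48, and the 34 without it had 4.82. Over the library these medians were 6.38 and 5.9. Apart from the narrow peak at a start of Vmp1 and the 2 at Bvht, none of the peaks with TGACTCA was within 1 kb of a TSS, and none was a promoter of Mir155hg, AL805899.1, Dnm3os, Carmn or Gm14636.

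Other motifs of factors active in fibroblasts were counted in the same windows on both strands. GGAATG, bound by the TEAD factors of the Hippo pathway, was in 8 peaks (17%, interval 7.65 to 30.8%) against 8.39% of all peaks, with 3 of the 8 at the Mir29 locus, 2 each at Mir155 and Mir214 and 1 at Mir21a. The CArG box was in 3 peaks (6.38%, interval 1.34 to 17.5%) against 0.567% of all peaks, and these are the Vmp1 start near Mir21a, the Dnm3os promoter and a low peak 3.48 kb downstream of Mir31 with a fold of 3.66. With 3 occurrences the share has a wide interval, and the intervals of these motifs too treat the peaks as independent draws. TGTGGT, the RUNX core, was in 1 peak (2.13%, interval 0.0539 to 11.3%) against 11.4%, and TTCNNNGAA, a STAT site, in 2 (4.26%) against 3.22%. A match is a stretch of letters and says nothing of whether the factor was bound.

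MicroRNA genes known for other cell types and for broad expression were counted in the same way. Of the 32 genes for other cell types, 20 (62.5%) had a peak within 25 kb, with a median of 2 peaks, or 0 once peaks within 1 kb of any TSS were left out. Of the 22 broadly expressed genes, 21 (95.5%) had a peak, with a median of 4, or 2 away from TSSs. The 10 fibroblast genes had medians of 7 and 4. The lists overlapped in their counts. Mir205 of epithelium had 7 peaks, as many as Mir31, and Mir9-1 and Mir9-2 of neurons had 5 each, as many as Mir155, while Mir23a, Mir27a and Mir24-2, which form a broadly expressed cluster, shared 8. No gene of the other lists reached the 10 peaks of Mir21a. By cell type, peaks were found at 4 of 9 muscle genes, 5 of 6 neuronal genes, 2 of 3 blood genes, 6 of 6 epithelial genes, 1 of 3 pancreatic genes, 2 of 4 embryonic stem cell genes and not at Mir122 of liver. The epithelial genes had a median of 4 peaks but 0.5 away from TSSs. The lists differ in how many of their genes are near coding TSSs, with none within 25 kb for 8 of the 10 fibroblast, 17 of the 32 other and 8 of the 22 broadly expressed genes, and clustered genes in each list share peaks.

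**Figure D4:**
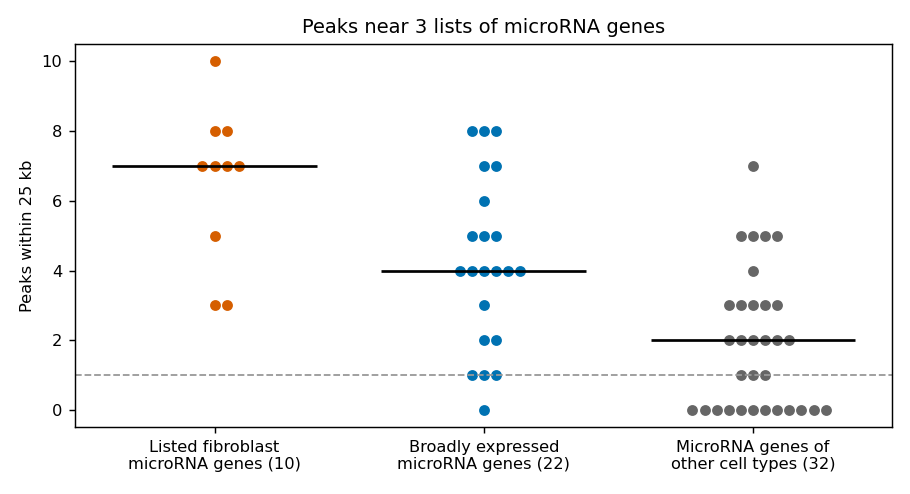
Number of peaks within 25 kb (vertical axis) of each microRNA gene in 3 lists (points), with the median of each list as a black bar and the median of all microRNA genes, 1, as a dashed line. The medians are 7 for the 10 fibroblast genes, 4 for the 22 broadly expressed genes and 2 for the 32 genes of other cell types, and the ranges overlap.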

How the data were processed

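ATAC-seq of parental NIH-3T3 cells was analysed (50000 cells, 0.5 µM Tn5). PCR ran for 12 cycles per the labels, whereas in the methods qPCR set the number of further cycles after a first few, and doxycycline is described for NIH-3T3 lines in general but is not listed for this sample. Per the submitters' processing notes the tools were STAR 2.5.3a, Picard, MACS2 2.1.1.20160309, SAMtools and deepTools, with the build mm10. The authors kept unique alignments, removed duplicates, and deposited a list of peaks called on whole fragments, without a described shift for the Tn5 cut. Peaks in blacklisted regions are said to have been discarded for ChIP-seq, to which the ATAC-seq methods refer. For each peak the authors deposited a fold enrichment (a ratio at the summit), a −log10 p, a −log10 q of a Poisson test and a score derived from the q-value, which was not used here.

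The read total is not part of the list, and the methods give only a range of reads sequenced per sample, so the exact depth of this library is unknown. The fragments at each summit were solved from fold and −log10 p, and came within 0.02 of a whole number for 99.997% of peaks. For 26.3% of peaks the expected pileup was the background of 2.81. The solver was tested on simulated data. Genes and TSSs are those of GENCODE M21 on GRCm38, and the 5′ ends of hairpins were not counted as TSSs. Motifs were counted once per summit, within 50 bp of it on both strands. MicroRNA and marker lists were described by counts and medians, and no test between samples or lists was made, since a single library was used. Named were all 10 members, their hosts, per locus the 2 peaks with the highest fold, the nearest peak and the host promoter peaks, and 16 genes of microRNA processing. The members and lists were chosen with earlier results of these data known. Alternatives were other q, fold and distance thresholds, summit positions, window widths, TGANTCA, hosts on either strand and, chosen after seeing the data, the nearest upstream start as host. The other 30 samples were not analysed here. The software was pysam 0.24.0, SciPy 1.17.1, pandas 2.3.3, matplotlib 3.10.9, NumPy 2.4.6 and Python 3.11.15.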

Additional observations from a re-analysis of the deposited data

How the results depend on the processing

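All 10 members kept a peak within 25 kb at a q of 0.01 or 1e-05, at a fold of at least 5, at 50 kb and with summit positions counted, and 8 did at 10 kb, where Mir221 and Mir222 had none and so gave no highest fold. The share of all microRNA genes with a peak was 45.6% at 10 kb, 73.6% at 50 kb and 56.4% at a fold of at least 5. It was not counted at the other q thresholds or with summit positions, so those results have no share beside them. Of the 47 peaks, 25 reached a fold of 5 and 23 lay within 10 kb, fewer by construction. The share with TGACTCA fell to 10.6% (5 of 47) within 25 bp of the summit, against 11.1% of all peaks, and was 31.9% within 100 bp, against 30.1%. A peak at a host TSS was found for 4 members and, when the nearest upstream start was counted as a host (chosen after seeing the data), for 8, since more genes then had a host. The share of all microRNA genes under that wider definition was not counted, so the 8 cannot be called many or few. Of the alternative values, 37 stayed within 1.5 times the reported count or within the reported value's 95% interval, and 10 did not. These limits are wide, since 70 peaks at 50 kb and a TGACTCA share of 40% (10 of 25) at a fold of at least 5 were within them. The share of all peaks at that fold with TGACTCA was not counted, so the 40% has no value of the library beside it. The highest fold moved with distance at 5 loci. For example, it was 10.8 at the Mir29 pair and 14.7 at Mir214 within 50 kb, and 3.66 at Mir31 within 10 kb. No paired analysis was possible because there is a single library. With no second library, the spread of peak calls between cultures could not be given, and a summit of 12 fragments is near the lowest of the list, at 10.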

Other observations

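The genes that make and load microRNAs were looked at in the same library. Of 16 such genes, 14 had a peak within 1 kb of a TSS. How many coding genes in general have such a peak was not counted, so the number describes these genes alone. The nuclear enzyme Drosha had a fold of 16.9 with 150 fragments at the summit, its partner Dgcr8 14.2 with 157, the exporter Xpo5 9.19 with 55 and its cofactor Ran 10.6 with 122. In the cytoplasmic steps, Dicer1 had a fold of 11.5 with 75 fragments, and its partners Tarbp2 and Prkra had 11.6 and 15.7. The Argonaute genes differed. Ago1 had 10.6, Ago2 8.42 and Ago3 14.1, and Ago4 had no peak within 1 kb of a TSS. The 3 genes for the silencing cofactors Tnrc6a, Tnrc6b and Tnrc6c had folds of 11.4, 10.6 and 7.64. Of the genes for the LIN28 proteins, which block let-7 maturation in embryonic cells, Lin28a had no promoter peak and Lin28b had a low one, with a fold of 3.68 and 13 fragments. These folds are of the highest promoter peak of each gene, and apart from Lin28b they ran from 7.64 to 16.9. The library's median of 6.04 is no like measure, since 25.5% of all peaks were within 1 kb of a TSS. A median over promoter peaks alone was not taken.

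At 3 loci the peak with the highest fold within 50 kb lay between 25 and 50 kb from the members. Lower peaks at that distance were counted, but their folds are not given. At Mir31 a peak 49.2 kb upstream (chr4:88959678-88960452) had a fold of 14.4 and 107 fragments, higher in fold than any peak within 25 kb of the gene. The highest of those had a fold of 12.5 and 117 fragments. Its interval of 96.8 to 140.2 fragments holds 107, so the order of these peaks is not settled at this depth. At Mir214 a peak 26.2 kb upstream (chr1:162196870-162197400) had a fold of 14.7 and 95 fragments. At the Mir29 pair the highest was the Lncpint promoter peak (chr6:31088396-31089386), with a −log10 q of 60.4. The number of peaks within 50 kb rose most at Mir31, from 7 to 16, and not at all at Mir221 and Mir222, which kept 3.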
